A study of Mus musculus with 15 samples.

Results

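H3K27ac peaks were examined at 10 genes of the canonical WNT pathway in a tumor from a mouse model of fusion-positive rhabdomyosarcoma (FP-RMS). FP-RMS is a skeletal muscle-like cancer driven by the PAX3-FOXO1 fusion. The 10 genes were the effector Ctnnb1, the 4 TCF/LEF factors Lef1, Tcf7, Tcf7l1 and Tcf7l2, the feedback regulator Axin2, and the secreted antagonists Sfrp1, Sfrp2, Dkk2 and Dkk3. Peaks that overlapped by at least 1 base the RefSeq span of a gene, or the 50 kb on either side of it, were taken. A peak was called a promoter peak within 2 kb of any RefSeq start site of the gene, a gene body peak elsewhere inside the span, and a flank peak outside it. Of the 122375 peaks in the deposited list, 108 met this rule.

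The series held 15 CUT&RUN libraries from tumors of 2 genotypes. MCP tumors carried Myf6-Cre together with Cdkn2a(Flox/Flox), the fusion allele written Pax(3P3F/P3F) and the reporter R26-tdTom. In TCP tumors Tek-Cre took the place of Myf6-Cre, and the other alleles were shared by all libraries. There were 6 MCP and 3 TCP libraries of H3K27ac, and 3 IgG control libraries of each genotype. CUT&RUN cleaves chromatin beside an antibody bound to the histone mark, here acetylation of lysine 27 on histone H3, which marks active promoters and enhancers. Myf6-Cre recombines in cells that have expressed the muscle factor Myf6, and Tek-Cre in endothelial and some blood cells. For CUT&RUN, live tumor cells were sorted from digested tumors, with DAPI as the marker of live and dead cells. The methods describe sorting on the tdTomato reporter for single-cell RNA sequencing and do not restate the gate for CUT&RUN. Whether other cells of the tumor were included was not tested. The age of the animals was not given in the labels.

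A single peak list was analysed. It belonged to an MCP H3K27ac library, titled replicate 5, so that no value had a replicate, no test was made, and MCP was not compared with TCP. The values describe this library, whose title gives no tumor number. The paper reports a variety of tumors in MCP mice, FP-RMS among them, and focal rather than diffuse MYOD1 and MYOGENIN staining in MCP tumors. The pileup at the weakest listed summit was 7 fragments and the median was 13, which gives a counting error of 27.7%, and 96 of the 108 peaks had fewer than 20 fragments. A gene with no listed peak may therefore carry acetylation below what was called at this depth. Among genes that mark skeletal muscle, 1 of 6 had a promoter peak (Myf6, 5.97-fold), compared with 0 of 4 endothelial markers and 1 of 3 immune markers (Cd68, 5.91-fold), beside 45.6% of protein-coding genes. Myod1, Myog, Myf5, Pax7 and Des had no promoter peak. Within 50 kb outside the gene, Myod1 had 11 peaks, Myf5 29, Myf6 35 and Des 15, while Myog and Pax7 had no peak in the window. Of the endothelial genes, Tek had 14 gene body peaks and 1 flank peak, Pecam1 4 and 6, and Cdh5 3 and 11. Kdr had no peak in the window. Among the immune genes, Cd68 had 22 flank peaks, Csf1r 8 and Ptprc 2.

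In canonical WNT signalling, secreted WNT ligands bind Frizzled and LRP receptors and stop a cytoplasmic complex, which holds Axin, APC, GSK3 and CK1, from marking beta-catenin for destruction. Beta-catenin then enters the nucleus and binds TCF/LEF factors, which sit on short sequence motifs and otherwise repress their targets together with Groucho/TLE proteins. SFRP proteins bind ligands, and DKK1, DKK2 and DKK4 bind the LRP co-receptors, while DKK3 is a divergent member of the family. In muscle, the pathway acts on the balance between stem cell renewal and differentiation.

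A promoter peak was found at 2 of the 10 genes, Ctnnb1 and Tcf7l2 (20.0%, Wilson 95% interval 5.67% to 51.0%), beside 45.6% of 21774 RefSeq protein-coding genes. A promoter or gene body peak was found at 6 of 10, beside 52.6% of protein-coding genes. Tcf7, Tcf7l1, Dkk2 and Dkk3 each had a peak in the gene body and none at a promoter, which is 4 of 10 (interval 16.8% to 68.7%), beside 7.03% of protein-coding genes and 13 of 74 other WNT pathway genes. Lef1, Axin2, Sfrp1 and Sfrp2 had no peak in the gene or in 50 kb on either side, again 4 of 10, beside 23.7% of protein-coding genes. Among genes within 25% of the member's length, the share with a gene body peak and no promoter peak was 19.2% for Tcf7l1, 14.8% for Dkk2, 9.33% for Dkk3 and 8.69% for Tcf7. The intervals count genes only and are wide at this number of genes. The count of genes with a gene body peak and no promoter peak was chosen after the data were seen and depends on weak peaks. With -log10 q of at least 5, Dkk3 had 0 gene body peaks, while Tcf7 kept 1, Tcf7l1 3 and Dkk2 2. Among the strongest 25% of peaks, Tcf7, Tcf7l1 and Dkk3 had 0 and Dkk2 had 1.

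The 108 peaks divided into 8 at promoters, 59 in gene bodies and 41 in flanks. Tcf7l2 held 45 of them, or 41.7%, and Tcf7l1 and Dkk3 held 19 each. Tcf7 held 12, Dkk2 8 and Ctnnb1 5. Of the 67 promoter and gene body peaks, 62 had the summit in an intron of the gene itself. Of the promoter peaks 3 of 8, and of the gene body peaks 3 of 59, lay within 2 kb of a start site of another gene as well. Of the 41 flank peaks, 11 lay within 2 kb of a start site of another gene and 22 had the summit inside another gene. Part of the flank signal may therefore belong to neighbours, and which gene each peak serves was not tested. Peaks less than 5 kb apart were joined into 34 runs, a grouping chosen after the values were seen, and 16 runs held at least 3 peaks.

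**Figure D1:**
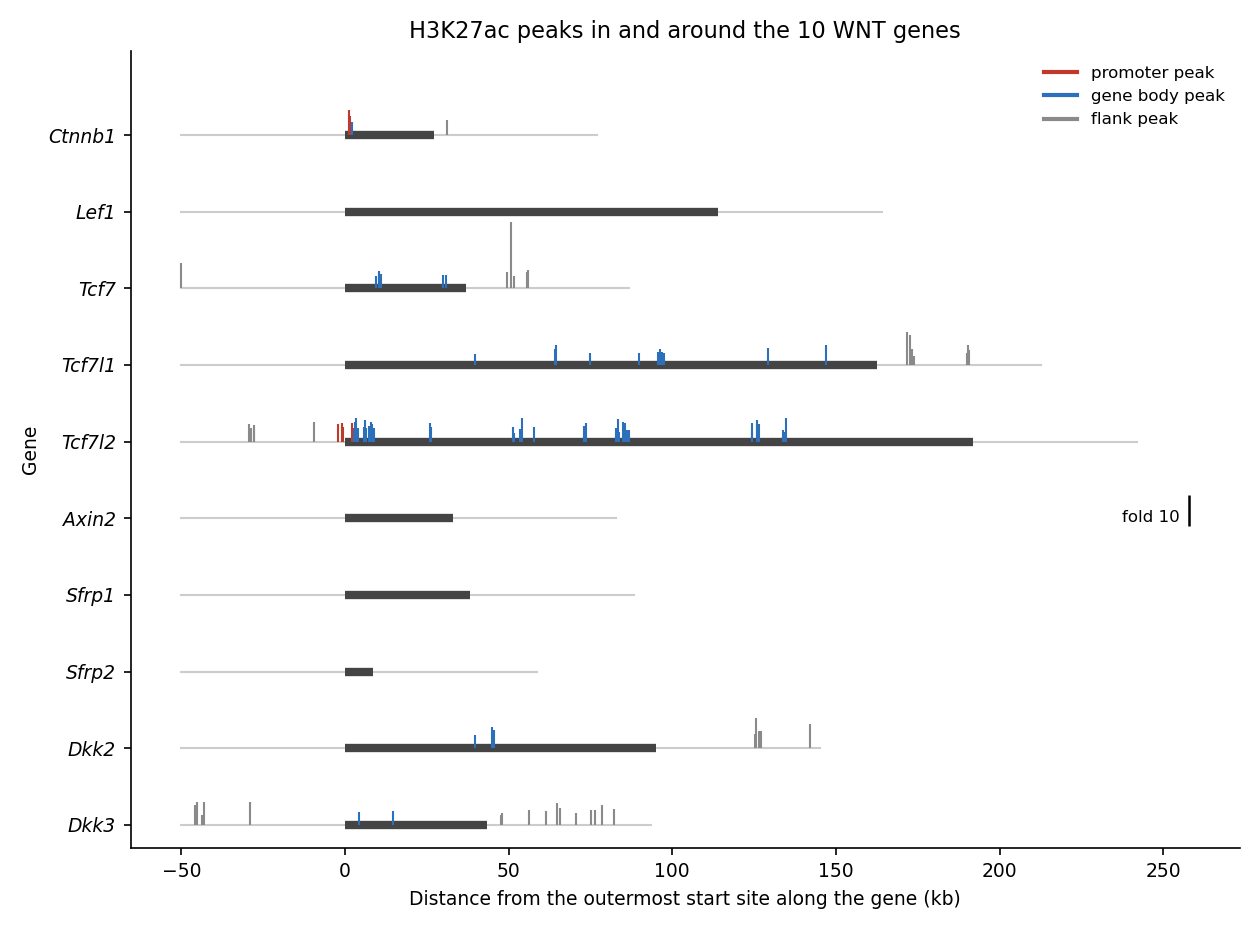
Position of every peak around the 10 genes, as distance in kb from the outermost start site in the direction of transcription; thick bars are gene spans, thin lines the 50 kb on either side, and the height of each stroke is the fold enrichment, with a scale stroke of 10-fold. Tcf7l2 carries peaks along much of its length, Lef1, Axin2, Sfrp1 and Sfrp2 carry none, and the tallest stroke, 21.7-fold, stands beside Tcf7 at the neighbouring gene Skp1.

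Ctnnb1 encodes beta-catenin, the transcriptional co-activator of the pathway. The gene lies at chr9:120933400-120960507 on the plus strand (mm10), with 2 RefSeq start sites 0.178 kb apart. It had 3 promoter peaks and 1 gene body peak, all in intron 1, in a run of 1.29 kb that began 1.16 kb downstream of the first start site. The strongest reached 8.04-fold from 20 fragments (exact Poisson 95% interval 12.2 to 30.9), a fold above that of 88.9% of all listed peaks. The following peaks of the run were 6.13-fold, 3.87-fold and 4.36-fold, the last of them outside the promoter limit. The flank peak, 4.79-fold from 10 fragments, lay in an exon of Ulk4. No peak overlapped the start sites themselves. The run of peak numbers in the list lacked 1 number between this flank peak and the following peak at position 121285368, part of which lies in the Ctnnb1 window and was not analysed here.

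Tcf7l2 encodes a TCF factor with activating and repressing isoforms. It lies at chr19:55741797-55933659 on the plus strand, with 10 RefSeq start sites, 7 of them in the first 0.459 kb and 3 from 152 to 154 kb downstream. The first group of start sites had 5 promoter peaks. Of these, 3 were upstream of the gene (5.65-fold, 5.94-fold and 4.67-fold), in the lncRNA Gm31734, which overlaps the beginning of Tcf7l2. The other 2 were in intron 3 (6.08-fold and 4.36-fold), intron numbers being those of the curated transcript with the most exons. The nearest of the upstream peaks, both intron 3 promoter peaks and 3 gene body peaks were also within 2 kb of a start site of Gm31734, and the part of each gene in these 6 peaks cannot be told apart. With start sites of curated transcripts alone, the 3 upstream peaks were left. The 3 internal start sites had no peak within 2 kb, and the nearest summits were 16.9 to 18.7 kb away.

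The Tcf7l2 gene body held 35 further peaks, all in introns, with 2.68-fold the lowest value and 7.80-fold the highest. Counting promoter peaks as well, intron 3 held 13 peaks, intron 4 held 9 and intron 5 held 15. No peak was listed in the last 56.6 kb of the gene. Among 778 protein-coding genes within 25% of its length, the median number of promoter and gene body peaks was 6 and the upper quartile 20.8. Tcf7l2 had 40, and 12.0% of these genes had as many or more.

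The peaks of Tcf7l2 were grouped: 40 of 45 lay in 6 runs of at least 3 peaks. The longest run, 11.3 kb with 16 peaks, extended from 2.17 kb upstream of the first start site to 9.15 kb inside the gene. Another 7 peaks lay in a 4.10 kb run in intron 5, from 82.7 to 86.8 kb, which held the broadest peak (chr19:55825793-55827219, 1427 bases, 6.53-fold, 21 fragments). The highest fold of the gene was shared by chr19:55745030-55745433, 3.53 kb from the first start site, and chr19:55876128-55877093, at 135 kb; each reached 7.80-fold from 17 fragments (interval 9.90 to 27.2), and the former was among the peaks at Gm31734. The strongest of the 5 flank peaks, chr19:55732327-55732874, was 9.40 kb upstream and reached 6.53-fold from 21 fragments. The counting intervals of these peaks overlapped.

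**Figure D2:**
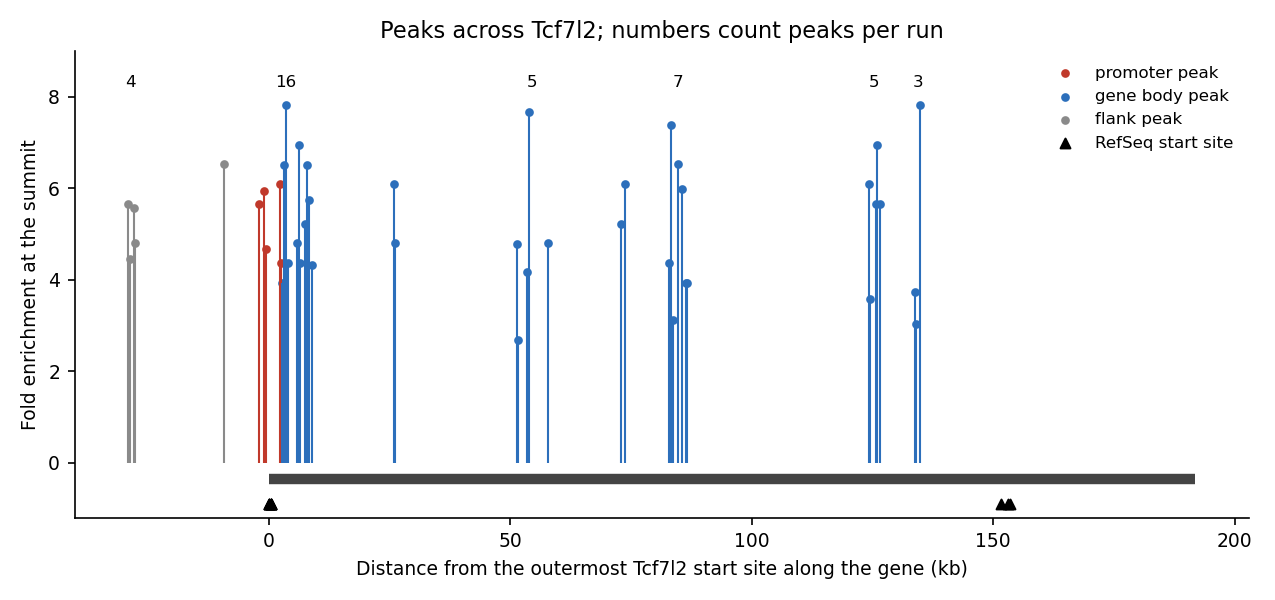
Fold enrichment at each of the 45 summits of Tcf7l2 against distance in kb from its outermost start site; the bar is the gene, triangles are RefSeq start sites, and numbers above give the peaks in each run of at least 3. The run of 16 covers the first group of start sites, and no peak stands at the internal start sites near 152 to 154 kb.

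TCF/LEF letters were found at 5 of the 45 Tcf7l2 summits. The share over all peaks of the list was 7.92%, and over all member peaks 7.41%. The 3 strongest of these peaks are shown, from intron 3 (chr19:55744797-55744996, 6.51-fold), intron 4 (chr19:55795654-55795853, 7.67-fold) and upstream of the gene (chr19:55732298-55732497, 6.53-fold), all on the plus strand with the motif in capitals. The centre of the motif was 2 bases from the summit in intron 4 and 88 bases from it upstream of the gene, inside the peak in both. In intron 3 it was 67 bases from the summit and outside the deposited peak.
Tcf7l2 intron 3: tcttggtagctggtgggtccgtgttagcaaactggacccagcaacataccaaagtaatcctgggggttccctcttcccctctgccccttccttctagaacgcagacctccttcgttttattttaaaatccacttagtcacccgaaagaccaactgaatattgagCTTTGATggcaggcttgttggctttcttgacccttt
Tcf7l2 intron 4: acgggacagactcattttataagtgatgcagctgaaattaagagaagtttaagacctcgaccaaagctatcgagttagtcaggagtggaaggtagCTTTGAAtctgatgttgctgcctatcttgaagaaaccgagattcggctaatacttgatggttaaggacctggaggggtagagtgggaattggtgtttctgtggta
Tcf7l2 upstream: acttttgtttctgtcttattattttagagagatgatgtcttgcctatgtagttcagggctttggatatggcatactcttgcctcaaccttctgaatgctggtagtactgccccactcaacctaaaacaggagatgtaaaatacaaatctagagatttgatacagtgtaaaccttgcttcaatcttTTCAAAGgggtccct

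Tcf7l1 encodes the TCF factor best known as a repressor. It lies at chr6:72626371-72789045 on the minus strand with 2 start sites, neither with a peak within 2 kb. The nearest summits were 39.7 kb from the first start site and 11.6 kb from the second. Its 12 gene body peaks were in introns, 11 in intron 3 and 1 in intron 5. The latter, chr6:72641777-72642158, was the strongest at 6.51-fold from 14 fragments, and the others were between 3.21-fold and 6.42-fold. A run of 5 peaks 95.8 to 97.7 kb from the first start site covered 1.94 kb. Of 910 genes of like length, 36.9% had 12 or more promoter and gene body peaks. All 7 flank peaks were at start sites of neighbours downstream, 3 at the divergent pair Elmod3 and Retsat and 4 at Tgoln1. The strongest of these, chr6:72616913-72617653 at Tgoln1, reached 10.7-fold from 29 fragments.

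Tcf7 encodes TCF-1, known best from T cells. It lies at chr11:52246527-52283383 on the minus strand with 6 start sites, none with a peak within 2 kb; the nearest summit was 2.85 kb downstream of the innermost and 9.46 kb from the outermost. Of its 6 gene body peaks, 4 formed a run of 2.07 kb in intron 3 and 2 were in exon 11 of 11. The strongest, chr11:52272809-52272901, was 5.65-fold from 12 fragments. The 3 highest folds of the window were in the flank. Of the 6 flank peaks, 3 were at Skp1, which encodes a subunit of SCF ubiquitin ligases, and chr11:52232266-52233590 in a Skp1 intron was the strongest peak of all 10 windows, at 21.7-fold from 51 fragments (interval 38.0 to 67.1). Upstream, an intergenic peak of 1297 bases, chr11:52332922-52334218, reached 8.29-fold from 27 fragments (interval 17.8 to 39.3) at the 50 kb limit. It was counted because its edge lay inside the limit, and its summit was 50.1 kb from the first start site.

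TCF/LEF letters were also at 2 of the 12 summits of Tcf7, beside 7.92% of all peaks. Both were in the flank, 1 at Skp1 and 1 intergenic (chr11:52227534-52227646, 6.08-fold). In the intergenic window, chr11:52227490-52227689 on the plus strand, the letters (in capitals, as their reverse complement) lay 86 bases from the summit and outside the deposited peak. As at the intron 3 window of Tcf7l2, the letters and the peak did not coincide.
Tcf7 flank: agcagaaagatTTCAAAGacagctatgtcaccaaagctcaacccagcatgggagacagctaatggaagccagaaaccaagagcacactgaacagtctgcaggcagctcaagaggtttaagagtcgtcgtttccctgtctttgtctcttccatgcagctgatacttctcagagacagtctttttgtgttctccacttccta

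Lef1 encodes the remaining TCF/LEF factor. It lies at chr3:131110297-131224357 on the plus strand with 5 start sites, and was inside a stretch of 282 kb with no peak. The nearest summit was 57.8 kb upstream of the first start site, 4.79-fold from 10 fragments. Of 1364 protein-coding genes of like length, 11.2% had no peak in the span or 50 kb on either side. For the other genes with no peak in the window, this share was 14.6% (Axin2), 14.1% (Sfrp1) and 19.3% (Sfrp2).

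Axin2 encodes a scaffold of the destruction complex and is a widely used target of the pathway, which it restrains by feedback. It lies at chr11:108917828-108950783 on the plus strand with 6 start sites. No peak was listed over 329 kb around it. The nearest summit was 71.3 kb upstream of the first start site, 3.86-fold from 8 fragments. Chromosome 11 as a whole had 7.94 peaks per 100 kb, the highest among the chromosomes of the 10 genes, so that the stretch was in a chromosome rich in peaks.

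Dkk3 and Dkk2 were the secreted antagonists with peaks. Dkk3 lies at chr7:112116019-112159482 on the minus strand and had 2 gene body peaks of 4.36-fold (9 fragments, intron 4) and 4.32-fold (11 fragments, intron 2), the latter 3.65 to 4.44 kb from its 3 start sites. Its other 17 peaks were in the flanks, 9 of them in introns of the neighbour Usp47, a deubiquitinase, and 3 in the lncRNA Gm39070. The strongest, chr7:112188362-112188502, stood 29.0 kb upstream near the start of the lncRNA Gm39071 and reached 7.41-fold from 24 fragments (interval 15.4 to 35.7). An upstream run of 5 peaks, at 43.0 to 45.7 kb, had a highest fold of 7.37. The window of Dkk3 was thus rich in peaks while the gene itself held 2 of them, both below the median of its window, 4.79-fold.

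Dkk2 lies at chr3:132085266-132180304 on the plus strand with 2 start sites, the nearest summit being 39.8 kb downstream. Its 3 gene body peaks were in intron 1, the strongest chr3:132130059-132130281 at 6.79-fold from 15 fragments, followed by 5.93-fold and 4.36-fold. The 5 flank peaks were intergenic and downstream, 4 of them in a run of 2.14 kb and 1 a further 14.6 kb away (7.80-fold, 17 fragments). The strongest of the run, chr3:132210882-132211203, reached 9.96-fold from 22 fragments (interval 13.8 to 33.3). Its summit lay in a dinucleotide repeat: 66.5% of the 200 bases, chr3:132210851-132211050, were repeat-masked in the reference, with an unbroken CA run of 48 bases. The sequence is shown because it is the strongest peak of the antagonists. The part of the repeat in the value was not tested.
Dkk2 downstream: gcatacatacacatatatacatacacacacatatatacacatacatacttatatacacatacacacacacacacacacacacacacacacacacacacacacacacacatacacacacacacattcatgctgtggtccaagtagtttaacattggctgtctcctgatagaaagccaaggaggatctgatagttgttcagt

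Over all members, 10 of 108 summit windows, or 9.26%, were more than 50% repeat-masked, beside 9.39% of all peaks. Dkk2 held 3 of the 10, Tcf7l2 3 and Dkk3 4.

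Sfrp1 and Sfrp2 encode soluble Frizzled-related proteins that bind WNT ligands. Sfrp1 lies at chr8:23411383-23449632 on the plus strand, in a stretch of 260 kb with no peak, and the nearest summit was 105 kb downstream of its start sites (3.58-fold, 11 fragments). Sfrp2 lies at chr3:83765750-83774314 on the plus strand, in the longest such stretch of the 10 genes, 789 kb, and the nearest summit was 78.8 kb downstream (6.74-fold, 16 fragments). Within 500 kb of Sfrp2 there were 28 peaks, the fewest among the 10, beside 165 around Tcf7l1, the most.

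Peak density was compared with the chromosome and with all protein-coding genes. Tcf7l2 had 15.4 peaks per 100 kb in its window against 5.15 over chromosome 19, a ratio of 2.99, and Dkk3 had 13.2 against 4.42 over chromosome 7, a ratio of 3.00. Tcf7 (8.77 against 7.94) and Tcf7l1 (7.23 against 5.94) were 1.10 and 1.22 times their chromosomes. Ctnnb1 (3.93 against 4.74) and Dkk2 (4.10 against 4.23) were slightly below theirs. The median over the 10 genes was 4.02, and over protein-coding genes 5.36 (quartiles 0.726 and 12.3), so that Tcf7l2 and Dkk3 were above the upper quartile and Tcf7, Tcf7l1, Dkk2 and Ctnnb1 were within the quartiles.

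**Figure D3:**
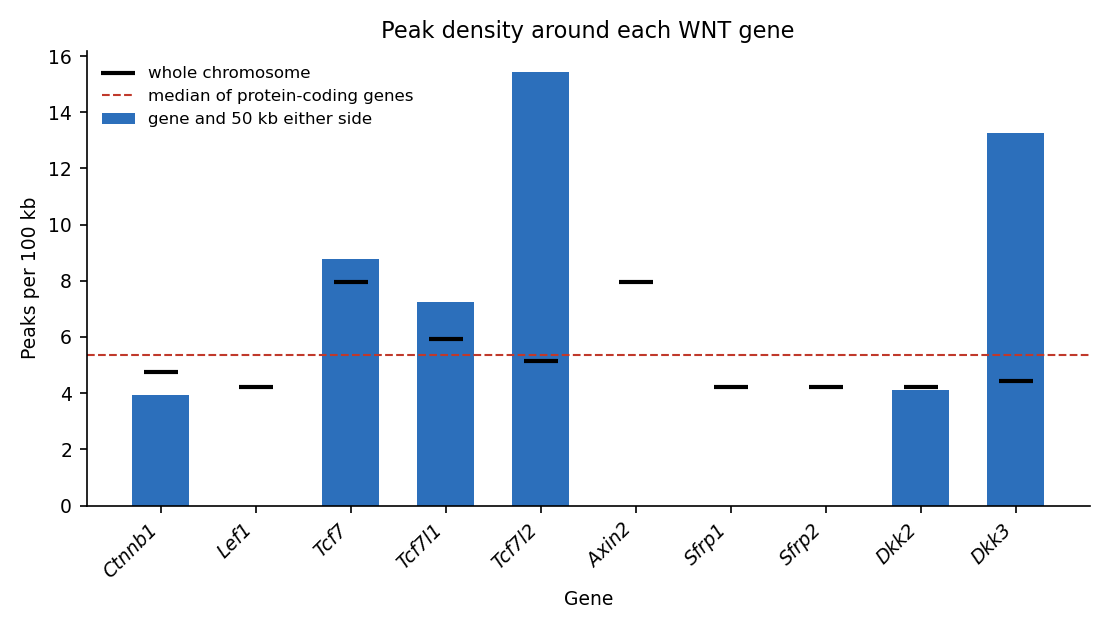
Peaks per 100 kb in the gene and 50 kb on either side (bars), over the whole chromosome (black strokes) and the median of protein-coding genes (dashed line, 5.36). The bars of Tcf7l2 and Dkk3 stand at 15.4 and 13.2, and Lef1, Axin2, Sfrp1 and Sfrp2 have no bar.

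The median fold of the member peaks was 5.19 (range 2.68 to 21.7), beside 5.22 over all peaks. By class, the medians were 5.79 at promoters, 4.79 in gene bodies and 5.39 in flanks, beside 5.35 for all peaks at start sites and 5.05 for the rest. The sets are not alike. The rest left out every peak within 2 kb of a start site, but 11 of the 41 flank peaks and 3 of the 59 gene body peaks were at one of another gene. Fold values repeated between peaks (4.36, 4.79, 5.22, 5.65, 6.08) because they moved in steps of whole fragments over a common background. By member, the median was highest at Dkk2 (5.79) and lowest at Ctnnb1 and Dkk3 (4.79 each). The differences between members were not tested. The strongest promoter peaks of Ctnnb1 (8.04-fold) and Tcf7l2 (6.08-fold) were on either side of the median of 7.37 over the 9920 protein-coding genes with a promoter peak (quartiles 5.65 and 9.53).

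**Figure D4:**
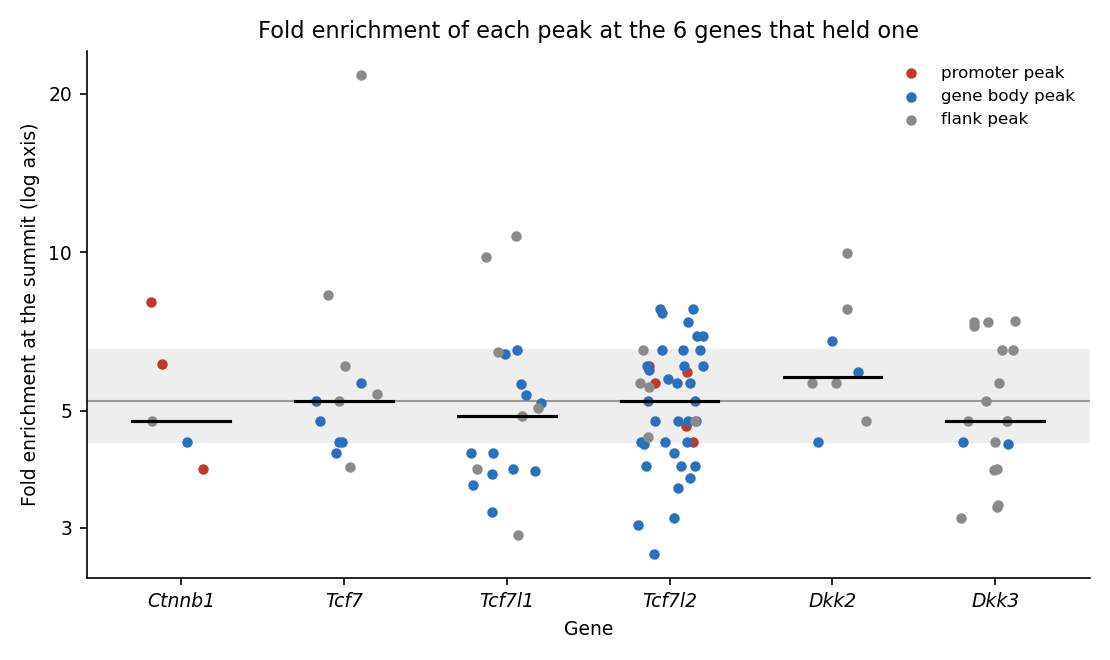
Fold enrichment at each summit, on a log axis, for the 6 genes with peaks. Black strokes are medians per gene, and the grey line and band are the median (5.22) and quartiles (4.36 and 6.51) of all 122375 peaks. Most points lie in or near the band, and the 21.7-fold point of Tcf7 is the Skp1 peak.

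CpG content was examined because promoters rich in CpG pairs are commonly acetylated. RefSeq promoter sequences (GRCm38.p6, 250 bases before to 50 after a start site) were at hand for 14 start sites of 8 members; Sfrp1 and Dkk3 were not matched. Over 21263 protein-coding promoters, the share with a peak within 2 kb went from 5.79% at 0 to 1 CpG to 72.0% at 34 to 67 CpG. The members' promoters were mostly CpG-rich. The Ctnnb1 promoters had 46 and 51 CpG and the first Tcf7l2 promoter 34, each with a peak. Tcf7l1 (34 CpG) and the outer of 2 Tcf7 promoters (45) belonged to the same top group and had none. Axin2 (31 CpG, in a group where 72.9% had a peak), Sfrp2 (22, 67.0%) and the first 2 Lef1 promoters (18 and 21, 67.0%) had none either. The inner Tcf7 promoter had 17 CpG, in a group where 58.9% had a peak, and Dkk2 had 11, in a group with 43.2%. The internal Tcf7l2 promoter (7 CpG) and the 2 inner Lef1 promoters (8 and 5) were in a group with 27.4%, and these had no peak either.

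The promoters of Ctnnb1, Axin2 and Dkk2 are shown, with CpG pairs in capitals, as a CpG-rich promoter with a peak within 2 kb, a CpG-rich promoter with none, and a CpG-poorer promoter with none. The bases shown for Ctnnb1 overlapped no peak themselves. They are chr9:120933328-120933627, chr11:108920099-108920398 and chr3:132085042-132085341, all on the plus strand.
Ctnnb1: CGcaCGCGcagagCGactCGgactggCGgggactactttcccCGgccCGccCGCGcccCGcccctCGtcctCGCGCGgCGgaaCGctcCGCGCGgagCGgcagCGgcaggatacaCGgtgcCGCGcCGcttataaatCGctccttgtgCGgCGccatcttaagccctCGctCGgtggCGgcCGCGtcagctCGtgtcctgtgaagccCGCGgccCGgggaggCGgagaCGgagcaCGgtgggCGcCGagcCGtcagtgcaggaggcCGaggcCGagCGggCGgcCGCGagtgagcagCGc
Axin2: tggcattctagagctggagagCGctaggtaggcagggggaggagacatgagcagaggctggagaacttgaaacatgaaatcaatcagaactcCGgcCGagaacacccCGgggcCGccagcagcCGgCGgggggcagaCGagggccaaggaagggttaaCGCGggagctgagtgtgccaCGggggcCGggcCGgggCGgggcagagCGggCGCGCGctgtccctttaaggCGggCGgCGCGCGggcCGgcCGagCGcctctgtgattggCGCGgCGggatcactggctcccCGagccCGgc
Dkk2: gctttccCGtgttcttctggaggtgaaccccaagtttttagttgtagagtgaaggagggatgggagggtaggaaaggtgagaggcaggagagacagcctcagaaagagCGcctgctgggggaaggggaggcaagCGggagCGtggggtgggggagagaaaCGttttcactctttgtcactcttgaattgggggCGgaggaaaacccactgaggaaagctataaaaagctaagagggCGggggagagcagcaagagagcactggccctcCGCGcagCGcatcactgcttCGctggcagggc

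**Figure D5:**
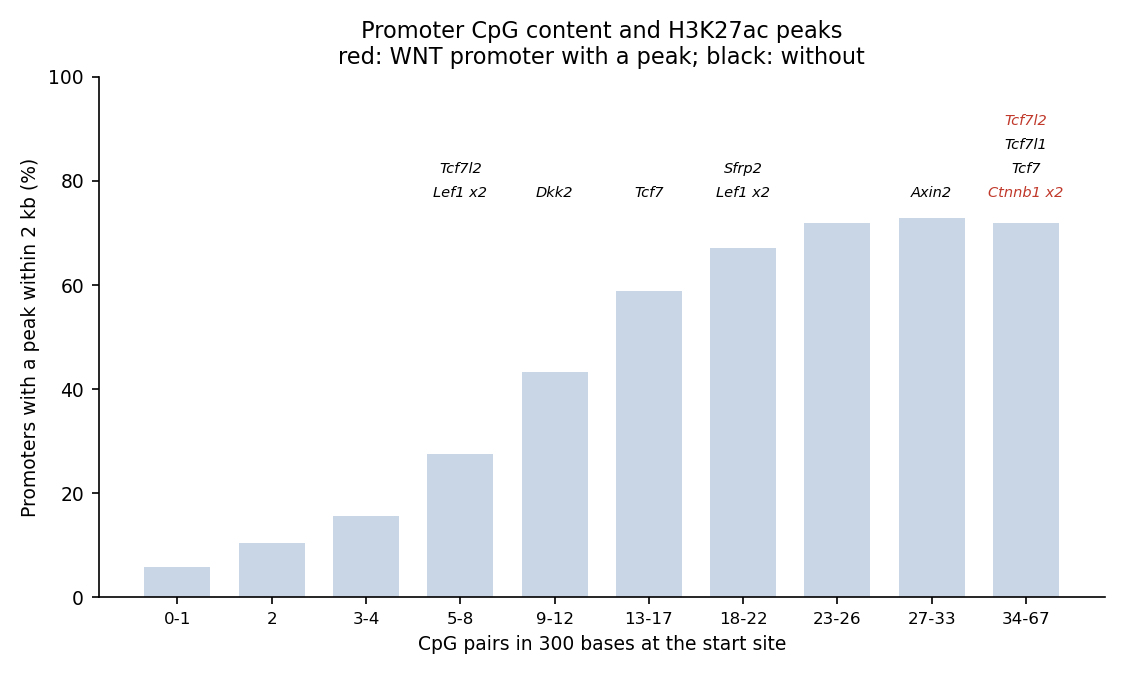
Share of protein-coding promoters with a peak within 2 kb of the start site, in 10 groups by the number of CpG pairs in 300 bases; names above the bars place the 14 promoters of 8 members, in red where a peak was present and in black where none was. In the group of 34 to 67 CpG, where 72.0% of promoters had a peak, Ctnnb1 and Tcf7l2 are red and Tcf7 and Tcf7l1 black.

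Motif letters were searched on both strands of 200-base windows at summits. TCF/LEF letters (CTTTGAT or CTTTGAA) were in 8 of 108 member windows, or 7.41% (interval 3.80% to 13.9%), beside 7.92% of all peaks. They were at 5 windows of Tcf7l2, 2 of Tcf7 and 1 of Ctnnb1, and 4 of the 8 matches lay inside the deposited peak. The E-box CAGCTG, bound by myogenic factors such as MYOD1, was in 14 windows (13.0%, interval 7.88% to 20.6%), beside 9.97%, and the letters GTCACG of the PAX paired motif were in 1 (0.926%, interval 0.164% to 5.06%), beside 2.57%. These intervals take the windows as independent, although 40 of the 45 Tcf7l2 peaks lay in runs of at least 3 peaks. They can therefore be too narrow, and the difference from all peaks was not tested. Among the strongest 25% of peaks, E-box letters were in 5 of 22 member windows (22.7%, interval 10.1% to 43.4%), beside 9.87% of all peaks of that strength. At the 14 promoters, TCF/LEF letters were in 0, beside 7.57% of all promoters, E-box letters in 2, beside 15.6%, and GTCACG in 1, beside 9.82%. The letters were matched as written and a match does not show that a factor is bound.

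The other genes of the pathway were described from a list of 74 by role. Of these, 23 had a promoter peak (31.1%, interval 21.7% to 42.3%), beside 45.6% of protein-coding genes, and 11 had no peak in the window (14.9%), beside 23.7%. The share was highest for the cytoplasmic components, 9 of 12, with Gsk3b (14.8-fold), Apc (13.8-fold) and Csnk1a1 (10.4-fold) the strongest, which encode the kinases and a scaffold of the destruction complex. Among nuclear co-factors it was 4 of 9, with Bcl9l (11.2-fold), a beta-catenin co-activator, the co-repressor Tle3 (9.10-fold) and Pygo2 (7.37-fold). Among receptors it was 6 of 15, with Lrp6 (9.07-fold), Ryk (6.08-fold) and Fzd7 (5.97-fold) the strongest; Fzd3, Fzd4, Fzd6, Fzd8, Fzd9, Fzd10, Lrp5, Ror1 and Ror2 had none.

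Of 19 ligand genes, 2 had a promoter peak, Wnt9a (8.42-fold) and Wnt10a (7.80-fold). Wls, which carries ligands to the cell surface, had a 14.7-fold promoter peak, and Porcn, which acylates them, had none. Of 9 genes for R-spondins and their receptors and ligases, 0 had a promoter peak (interval 0% to 29.9%). Of 8 further antagonists, 1 had a promoter peak, Sfrp4 (6.08-fold), while Dkk1, Dkk4, Sfrp5, Frzb, Wif1, Sost and Notum had none. Among the 10 genes described above, 0 of the 4 antagonists and 2 of the 5 effectors and TCF/LEF factors had a promoter peak. These are counts of few genes in 1 library, and the differences between roles were not tested.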

How the data were processed

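H3K27ac CUT&RUN was performed by the authors. Per their methods, reads were aligned to mm10 with bowtie 1.2.2, reads were filtered against a list of problematic regions and an amplicon beside Col19a1, and peaks were called against the IgG control. The methods name MACS1.4, and the submitters' processing notes name MACS2 and BWA. The deposited list has no header and follows the narrowPeak layout, which gives for each peak of 1 library a peak score, the fold enrichment (ratio to control) at the summit, and the -log10 p-value and -log10 q-value. Depth is not given in the sources used here. Whole fragments at each summit were recovered from the fold and p columns (99.999% of peaks solved within 0.01 of -log10 p, 96.8% with a single solution).

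Peaks were assigned with Python 3.11.15, numpy 2.4.6, pandas 2.3.3 and RefSeq GRCm38.p6, and sequences were read with pyfaidx 0.9.0.4. Windows, class rules and motif searches were tested on simulated data. Intervals (scipy 1.17.1) cover counting error only and take the counted items as independent. The members, the list of other WNT genes and the motif letters were chosen with earlier results of these data known. All members are named; of other WNT genes, up to 3 per role with the highest promoter fold, and the receptors and antagonists with none. The strongest promoter, body and flank peak of each member is given. The count of genes with a gene body peak and no promoter peak was added after the data were seen. The count of genes with no peak in the window and the comparison with genes of like length were not planned in advance either. Alternatives changed the peak threshold, promoter and flank widths, start sites, overlap rule and motif window. The other 14 libraries were not analysed here. The sequence of the Ctnnb1 peaks is not reported here.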

Additional observations from a re-analysis of the deposited data

How the results depend on the processing

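No paired analysis was possible because the peak list of a single library was analysed. Of 56 alternative values, 36 stayed within 1.5 times, the counting interval or the counting error of the value reported. Some of these 36 could not have moved. The flank width does not enter the promoter or gene body counts, and the promoter width and choice of start sites do not alter the total. Among the strongest 25% of peaks, 22 remained in the windows (1 promoter, 8 gene body and 13 flank), 1 member (Ctnnb1) had a promoter peak, beside 29.4% of protein-coding genes, 2 (Tcf7l2 and Dkk2) had a gene body peak without a promoter peak, beside 6.83%, the median density was 0.964 per 100 kb beside 0.989 over protein-coding genes, 14 of 74 other WNT genes had a promoter peak, beside 29.4%, and of 22 windows E-box letters were in 22.7%, GTCACG in 0% and TCF/LEF letters in 13.6%, beside 9.87%, 2.81% and 7.46% of all peaks of that strength. With -log10 q of at least 5 there were 48 peaks, 22 in gene bodies and 20 in flanks. A promoter limit of 1 kb left 3 promoter peaks, with Ctnnb1 and Tcf7l2 still the members that had them; the Ctnnb1 peak met this limit by its edge. A 10 kb flank left 6 flank peaks. A 100 kb flank gave 232 peaks, 165 of them in flanks, and 0 members without a peak, beside 17.3% of protein-coding genes. With 100-base windows, TCF/LEF letters were in 2.78% and E-box letters in 7.41%, beside 3.76% and 5.19% of all peaks. Ordered by -log10 q, 4 of 6 members kept their place in the order of median strength. Tcf7 and Tcf7l2, tied by fold (5.22 each), were separated with Tcf7l2 ahead, and no member passed another. The depth of the library limits what an absent peak shows.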
